A study of Harpegnathos saltator with 75 samples.

Results

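The genes described here are 200 gene models of the ponerine ant Harpegnathos saltator, out of 20659 in the table. At day 0 their transcripts were at least 8 times as high in the fat body as in the brain or ovary after a constant was added, and at day 10 their fat body levels differed little between reproductive and worker ants. Levels are CPM, read counts scaled to the size of the library and to a library-specific factor that evens out composition (TMM). With 5 CPM added to each group mean, R is the log2 ratio of the highest to the second-highest tissue at day 0. D is the log2 ratio of gamergate to worker fat body at day 10. Members had the fat body highest, R of at least 3 and D between -0.8 and 0.8. The rule was met by 230 genes, and the 200 with the highest R were kept. Because day 0 levels and the day 10 caste ratio chose the genes, both are given below as description without a test.

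The fat body is the insect organ of intermediary metabolism. It stores lipid, glycogen and protein, synthesises most haemolymph proteins and, in reproducing females, makes yolk precursors for the ovary. In Harpegnathos, workers that lose their queen fight with their antennae. The winners become gamergates, which mate and lay eggs, while the others remain workers. Genes that are high in this organ whatever the caste form the counterpart of the fat body genes that follow reproduction.

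Polyadenylated RNA was sequenced from non-visual brains, ovaries and fat bodies, with 5 libraries in each of 15 groups and 75 libraries in all. Workers were sampled at day 0, when the duels began. Ants labelled gamergate and ants labelled worker were sampled at day 3 and day 10. No genotype, strain or age is given in the labels used here. Whether the libraries of a group came from separate ants is not stated, and the spread behind each p-value may therefore be technical. The files do not pair the gene identifiers with names. None of them (0) matched the RefSeq table, so genes are given by identifier, with no role or sequence. For the same reason the labelled tissues could not be checked against marker genes.

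Reads assigned to genes numbered 880082 to 4467790 per fat body library, 488892 to 2921261 per brain and 737818 to 4677916 per ovary. Libraries of the same tissue resembled each other, with some that stood apart. Day 0 brain library 5 had a median correlation of 0.555 with the other brains, and day 10 gamergate brain library 5 one of 0.784. Day 0 fat body library 3 had the lowest value among fat bodies, 0.85. Worker ovary libraries 1, 2 and 3 of day 10 had 1.96% to 2.29% of their reads in genes specific to the ovary at day 0, against 3.49% and 4.11% in libraries 4 and 5. For the main results that rest on these libraries, values without them are given beside the result unless stated otherwise. At each later day, all worker libraries were on one sequencing lane and all gamergate libraries on another, so caste and lane cannot be told apart. Day 3 and day 10 also had separate flow cells, so these days and flow cells cannot be told apart.

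The 200 genes took 15.5% to 31.9% of the assigned reads in the fat bodies. In the brains they took 1.06% to 4.55% and in the ovaries 0.862% to 2.26%. R ran from 3.2 to 9.73 with a median of 4.28. The last gene inside the list, HSALG012784.1, had R of 3.2 and the first one outside, HSALG012785.2, 3.19. At the caste limit, HSALG002650.1 with D of 0.79 was inside and HSALG012250.2 with 0.80 outside. On the other side HSALG008809.2 with -0.79 was inside and HSALG020288.1 with -0.81 outside. In all, 339 genes (1.64% of the table) had R of at least 3 in favour of the fat body at day 0, and 109 of them had a caste ratio beyond the limit. The second-highest tissue at day 0 was the brain for 119 members and the ovary for 81.

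How alike the castes were at day 10 depended on the scaling. The TMM factors of fat bodies lay between 0.357 and 0.785, against 1.16 to 1.45 in brains and 1.12 to 1.56 in ovaries. At day 10 they were 0.357 to 0.403 in gamergate fat body libraries 1 to 4, 0.578 in gamergate library 5 and 0.557 to 0.785 in worker fat bodies. Gamergate library 5 was thus within the worker range, and the gamergate mean behind D includes it. The median D of the members was 0.00 with TMM. It was -0.51 with library totals alone, where 152 members stayed within the limit of 0.8, against a median of -0.56 over all genes tested in the fat body. As a share of reads, the members took 23.8% to 27.3% in day 10 worker fat bodies. They took 15.7% to 18.7% in gamergate libraries 1 to 4 and 31.9% in library 5. The 109 genes with a caste difference share these libraries. These genes took 49.1% to 50.7% of the reads in gamergate libraries 1 to 4, 19.6% in library 5 and 12.1% to 26.5% in workers. Equal levels between castes therefore mean equal levels relative to most other fat body genes, not an equal share of the reads.

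Not all 200 were genes of the fat body in general. For 27 of them, over 80% of the summed day 0 fat body CPM lay in a single library, which was library 3 for 26 of them. These 27 together had 89280 CPM in day 0 fat body library 3 and 44.0 to 363 CPM in the other 4 libraries of that group. They made up 5.91% of all reads and 23.2% of the members' reads there. Among later fat bodies, day 3 worker library 4 was highest, with 2319 CPM, and the other 19 had 42.0 to 254 CPM.

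HSALG010895.2, the gene with the highest R (9.73), was one of these. In the day 0 fat bodies it was at 0, 5.92, 25990, 0 and 0 CPM in libraries 1 to 5. It reached 577 CPM in day 3 worker fat body library 4 and at most 36.9 CPM in any other later fat body. Its high day 0 group mean was thus the value of 1 library. HSALG005185.1, with the third-highest R (8.89), was at 13680 CPM in library 3 and at 0 in the other 4. In day 3 worker library 4 it was at 161 CPM, and at most at 19.2 CPM in the other later fat bodies.

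**Figure D1:**
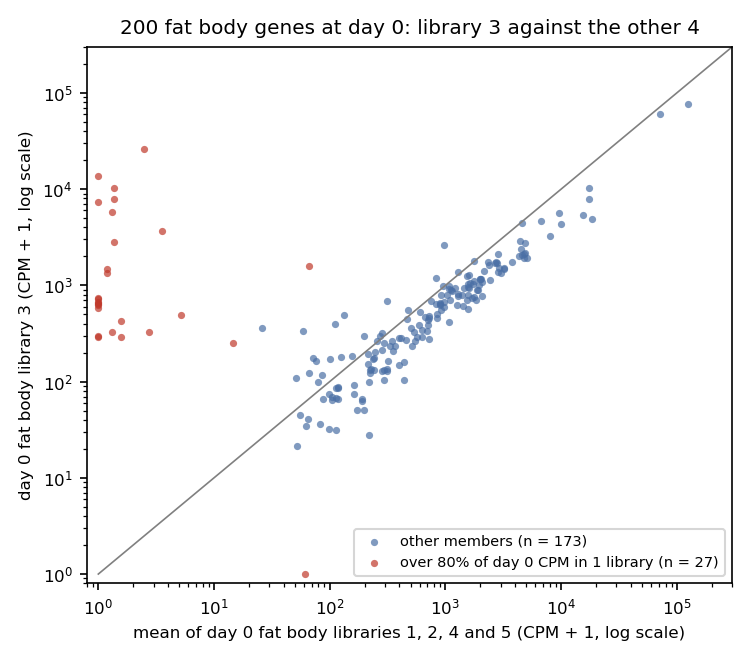
Each point is 1 of the 200 genes. The x axis gives the mean of day 0 fat body libraries 1, 2, 4 and 5 and the y axis library 3, both as CPM + 1 on log scales, with the line of equality. The 26 genes that rest on library 3 stand at the upper left, while most of the 173 others lie just below the line.

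The other 173 members did not rest on a single day 0 library to that extent. For 7 of them the highest library still held between 50% and 80% of the summed CPM. Of all members, 171 were above 5 CPM in all 5 day 0 fat bodies and 21 in only 1. For 159 the highest library held at most 40% of the summed CPM. Library 3 was also low for these other genes. Relative to the group mean of each gene, its median deviation was -0.53 on the log2 scale, and 14.5% of the genes were above their group mean. Day 3 worker library 4 had a median deviation of -0.41 and 14.0% of genes above the mean. The fat body libraries with the most reads of the 27 genes, these 2, had the lowest median deviation of their groups for the rest. What these libraries contained besides fat body was not tested. Leaving out the day 0 libraries numbered 3 kept 172 of the 200 members.

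Among the 173, levels at day 0 spanned 44.9 to 116100 CPM as group means, with a median of 673 CPM and 71 genes above 1000 CPM. In the day 0 brains the median was 12.2 CPM and in the ovaries 8.53 CPM. No gene was without reads in all 25 brains or in all 25 ovaries (0 of 173 in each), and 27 stayed below 5 CPM in every brain and ovary group. In bulk tissue, fewer cells of a type and less RNA per cell cannot be told apart. A few genes held most of the members' reads. In the 25 fat bodies, the top 10 took 51.9% to 70.3% of the reads of the 173 genes.

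HSALG013133.2 took the most reads. It made up 5.13% to 6.85% of all reads in the day 0 fat bodies and 5.72% to 12.7% in those of day 10 gamergates. In day 10 workers it made up 7.73% to 10.8%. It was at 77500 to 135300 CPM at day 0. Brains also held it, at 5694 to 19130 CPM, apart from 1097 CPM in day 0 brain library 5, the library least like the other brains. Ovaries had 6.74 to 655 CPM outside the day 10 workers. There, worker libraries 1, 2 and 3 had 1837 to 3319 CPM and libraries 4 and 5 had 202 and 581 CPM.

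The day 3 libraries took no part in choosing the genes and give the first independent look at tissue specificity. The question was whether these genes were again highest in the fat body, in ants on either path. Of the 200, 174 passed the filter on low counts in the fit of the 30 day 3 libraries, and those left out were mainly genes that rest on a single library. Fat body exceeded brain for 173 of the 174 (edgeR quasi-likelihood test, adjusted p below 0.05), and was lower for 1. Of all 10537 genes tested, 33.7% were higher, 45.4% lower and 79% either. Fat body exceeded ovary for 172 and was lower for 0, against 34% higher, 38.4% lower and 72.4% either. Both held for 171 members, against 20.8% of all genes. The median log2 difference was 5.40 against brain and 5.79 against ovary, and -0.24 and -0.09 over all genes tested. For 168 members, every fat body library was above every brain library, and for 163 above every ovary library. Of all genes tested, 16.4% and 14.7% were called higher with no overlap. Members that passed did so through the fat body where they are high, so these counts describe those that passed and not the whole list. Within 1 lane, gamergate libraries alone gave 166 members above brain and 164 above ovary, and worker libraries alone 169 and 167.

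HSALG005764.2 had the highest R (9.32) among genes spread over all libraries. In the day 3 fat bodies it was at 18920, 10100, 23350, 33360 and 12830 CPM in gamergates and at 18540, 10690, 11220, 14490 and 17130 CPM in workers. The 10 day 3 brains had 0 to 6.40 CPM and the 10 ovaries 0.569 to 70.3 CPM. Fat bodies were thus far above every library of the other tissues. The log2 difference was 13.5 against brain (SE 0.69, edgeR quasi-likelihood test, adjusted p = 1.4e-16). It was 9.44 against ovary (SE 0.56, edgeR quasi-likelihood test, adjusted p = 5.89e-15).

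HSALG002372.2, with R of 8.69, was at 1439 to 5480 CPM in the day 3 fat bodies and at 0 to 2.84 CPM in the brains, again without overlap. Fat body exceeded brain by 13.1 on the log2 scale (SE 0.56, edgeR quasi-likelihood test, adjusted p = 2.73e-18).

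The ovary difference was large also for genes of lower level. HSALG022271.1 was at 130 to 365 CPM in the 10 day 3 fat bodies and at 0 to 1.85 CPM in the 10 ovaries, a log2 difference of 9.70 (SE 0.31, edgeR quasi-likelihood test, adjusted p = 8.51e-22). HSALG020588.1 was at 58.1 to 322 CPM in these fat bodies and had 3 reads in all 10 ovaries together. The ratio of pooled CPM was 1510, with an exact binomial 95% interval of 514 to 7310 that covers counting error only.

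The exceptions were 3 genes, named here after their values were seen. HSALG000229.2 was lower in fat body than in brain at day 3, by a log2 difference of -1.84 (SE 0.57, edgeR quasi-likelihood test, adjusted p = 0.00444). It rests on day 0 library 3, which had 3629 CPM, against 0 to 7.77 CPM in the others. Its day 3 fat bodies had 0 to 5.19 CPM, except worker library 4 with 105 CPM, and its brains 17.65 to 36.3 CPM. Without that worker library the difference was -3.33, and in worker libraries alone it was -0.12 (edgeR adjusted p = 0.902). HSALG006504.2 and HSALG010980.2 did not pass the test against ovary, with log2 differences of 1.09 (SE 0.51) and 0.31 (SE 0.72) and edgeR adjusted p of 0.0585 and 0.723. Without day 3 gamergate ovary library 1 both passed, at 1.70 and 1.70 (edgeR adjusted p = 0.00194 and 0.0104). Without day 3 worker ovary library 4 the differences were 1.85 and 1.58 (edgeR adjusted p = 0.000737 and 0.0588).

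Both of these had high values in the same 6 ovary libraries. These were gamergate library 1 and worker library 4 of day 3 and gamergate libraries 1 to 4 of day 10. HSALG006504.2 was at 76.0 to 300 CPM in these 6 and at 2.91 to 19.3 CPM in the other 19 ovaries. HSALG010980.2 was at 51.1 to 193 CPM in the 6 and at 0.438 to 13.7 CPM in the other 19. Day 10 gamergate library 5 was among the low ones for both, at 4.89 and 5.87 CPM. Of 133 members measured in the ovary, 15 (11.3%) had all 6 libraries above all 19 others, against 3.65% of the 9150 genes measured there. The 6 libraries were picked from these values, so the shares are a description.

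By the rule's own measure, 139 of the 200 members had R of at least 3 in day 3 gamergates and 146 in day 3 workers, against 1.35% and 1.37% of all genes. The figures were 143 in day 10 gamergates and 148 in day 10 workers, against 1.34% and 1.29%, where D had used the fat body levels. The fat body was the highest tissue for 184, 195, 188 and 187 members in these 4 groups. Among the 27 genes resting on a single day 0 library, 0 had R of at least 3 in both day 3 castes. Among the other 173, 133 did, and 120 had it in all 4 later groups.

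**Figure D2:**
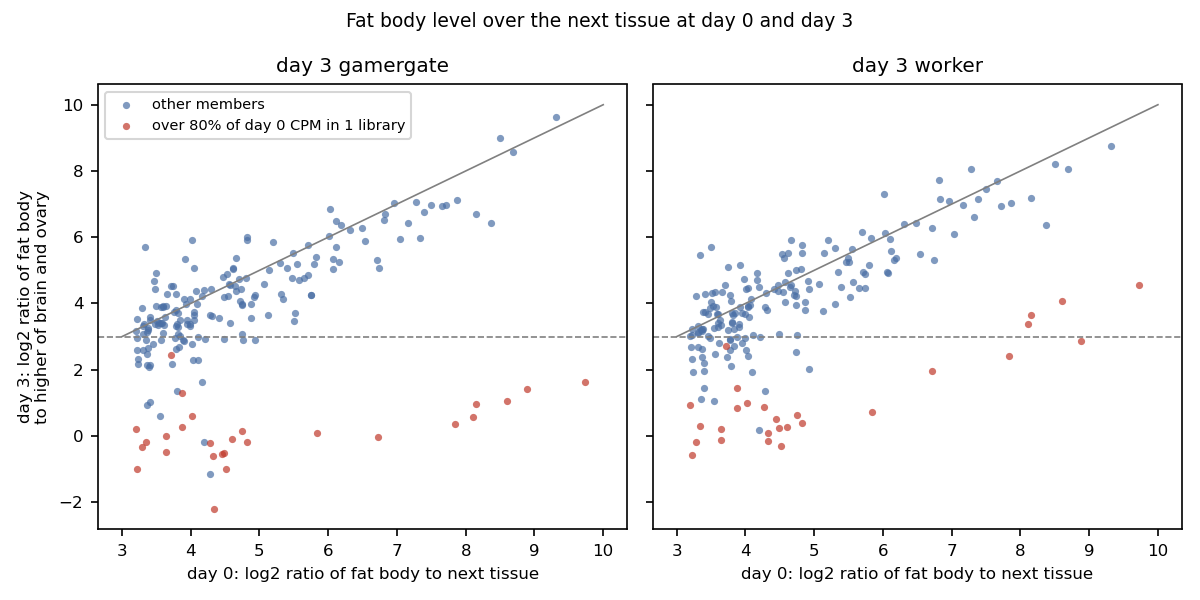
Each point is 1 of the 200 genes, with R at day 0 on the x axis and the log2 ratio of the fat body to the higher of brain and ovary at day 3 on the y axis, for gamergates (left) and workers (right). The solid line marks equality and the dashed line a ratio of 3. Most of the 173 genes follow the line, and the 27 single-library genes lie below it.

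The caste comparison at day 3 asked whether members already differed between gamergates and workers before the day that chose them. None of the 176 members that passed the fat body filter was called (0, edgeR quasi-likelihood test, adjusted p below 0.05), against 0.0504% of 7941 genes. At an unadjusted p below 0.05 there were 13 (7.39%), against 6.4% of all genes. DESeq2 called 2 members, of 19 genes called in all. These were HSALG002994.2 and HSALG009557.2, with log2 differences of 1.00 (SE 0.26) and 0.86 (SE 0.24) in favour of gamergates. The median log2 difference was -0.04 and the middle 50% of members lay between -0.32 and 0.22. Of the 109 genes with a caste ratio beyond the limit at day 10, 107 were measured, and 0 were called at day 3 either. A test of the difference between the gene groups was not made.

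HSALG002994.2 had the lowest p of the members. It was at 679, 898, 950, 502 and 481 CPM in day 3 gamergate fat bodies and at 452, 311, 502, 238 and 262 CPM in workers. Gamergate library 5 was within the worker range, library 4 was level with the highest worker, and libraries 1, 2 and 3 were above all workers. The log2 difference was 0.99 and did not pass (edgeR quasi-likelihood test, adjusted p = 0.278).

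Over time, fat body levels of a minority of members moved, in a comparison where day and flow cell largely coincide. From day 0 to day 3, 26 of the 172 measured members of the larger group had a mean at least 2-fold lower. This is 15.1%, against 2.64% of all genes tested in the fat body. Another 9 (5.23%, against 3.77%) were at least 2-fold higher. For 25 of the lower and 6 of the higher genes, the change was at least 2-fold in each caste separately. Of the same 172 genes, 10 had all 10 day 3 libraries below all 5 of day 0 (1.83% of all genes), and 4 had all above (2.35%). Against the 3 day 0 libraries sequenced on the same flow cell as day 3, 42 genes (24.4%, against 2.97% of all genes) were lower and 12 (6.98%, against 4.9%) higher. Without day 0 library 3, which was low for most members, 31 (18%, against 2.56%) were lower and 8 (4.65%, against 4.07%) higher. At day 10, 11 genes (6.4%, against 1.44%) were lower and 8 (4.65%, against 3.17%) higher than the mean of all 5 day 0 libraries. Without library 3, 13 (7.56%, against 1.36%) were lower and 9 (5.23%, against 3.46%) higher. Libraries 3 and 4 of day 0 shared the flow cell of day 10. Against these 2, 9 genes (5.23%, against 2.34%) were lower and 21 (12.2%, against 4.18%) higher. Relative to library 4 alone, 10 (5.81%, against 2.68%) were lower and 14 (8.14%, against 4.76%) higher. Neither day 0 value was independent of the rule, which required a high level on that day.

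HSALG002046.2 had the largest decrease in mean level. It was at 7482, 9147, 10240, 25110 and 27720 CPM at day 0. The 10 day 3 libraries had 25.6 to 2089 CPM and those of day 10 had 14.1 to 2812 CPM, so that no later library reached the lowest one of day 0. The mean difference was -5.23 at day 3 and -5.45 at day 10 on the scale of log2(CPM + 5). Within each later group its libraries still differed widely, as in day 10 workers with 2812, 119, 21.2, 2238 and 14.1 CPM. HSALG022403.1 was at 4297 to 14760 CPM at day 0 and at 809 to 4211 CPM at day 3, also with no overlap.

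In the other direction, HSALG008448.2 was at 196, 229, 212, 273 and 433 CPM at day 0. At day 3 it was at 349 to 1332 CPM, with 2 worker libraries below the highest one of day 0. The mean difference was 1.61 on the scale of log2(CPM + 5) at day 3 and 1.25 at day 10.

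From day 3 to day 10, 16 of the 176 members rose and 3 fell (edgeR quasi-likelihood test, adjusted p below 0.05). These are 9.09% and 1.70% of the members, against 2.3% and 2.24% of all genes, or 4.55% in either direction. The rule set no level at day 10 but limited the caste ratio in these same libraries, so the test is not independent of the choice. Genes that changed in a single caste could be left out by the rule. The median log2 difference was 0.17, and -0.01 over all genes. The genes that rose had a median difference from day 0 of -1.28 at day 3 and -0.32 at day 10. All 16 were below day 0 at day 3, as were 91 of the 153 members not called. Both comparisons use the same day 3 libraries and the rule chose high day 0 levels, so nothing is read from that count. With library totals in place of TMM factors the split was 10 higher and 8 lower, with the median of all genes at -0.16. With lane as a term, which rests on the 5 day 0 libraries, 0 were called. The 19 genes kept their direction there (19 of 19), with a median difference of 1.42 in place of 0.95 and a median SE of 0.53 in place of 0.23.

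HSALG008812.2 and HSALG005350.2 had the largest rises among the called genes and were named after their values were seen, since no called gene was free of overlap. HSALG008812.2 was at 66.8, 57.5, 63.7, 89.7 and 52.1 CPM in day 3 gamergates and 150, 84.4, 84.7, 49.98 and 36.8 CPM in day 3 workers. At day 10 it was at 251, 174, 312, 290 and 150 CPM in gamergates and 147, 218, 89.9, 247 and 256 CPM in workers. Only day 3 worker library 1 reached into the day 10 range. It rose by 1.54 on the log2 scale (SE 0.23, edgeR quasi-likelihood test, adjusted p = 0.000431). HSALG005350.2 was at 725 to 2940 CPM at day 3 and 1082 to 11320 CPM at day 10, a difference of 1.46 (SE 0.33, edgeR quasi-likelihood test, adjusted p = 0.0102).

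HSALG011056.2, second by reads at day 0, was also among those that rose. At day 0 it was at 92150, 61700, 60180, 59930 and 74520 CPM. Day 3 gamergates had 25820, 26430, 28470, 60310 and 23260 CPM and day 3 workers 15520, 26020, 28250, 15290 and 19950 CPM. Only gamergate library 4 was within the day 0 range. By day 10 gamergates were at 37640 to 101000 CPM and workers at 25250 to 82960 CPM. The log2 difference from day 3 to day 10 was 1.19 (SE 0.24, edgeR quasi-likelihood test, adjusted p = 0.00535).

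Of the genes that fell, HSALG029553.1 changed by -1.05 (SE 0.25, edgeR quasi-likelihood test, adjusted p = 0.0158), HSALG002994.2 by -0.95 (SE 0.18, adjusted p = 0.00357) and HSALG002896.2 by -0.80 (SE 0.17, adjusted p = 0.00586). HSALG029553.1 was at 75.2 to 259 CPM at day 3 and 35.3 to 166 CPM at day 10, with overlapping ranges. For HSALG002994.2 the mean difference on the scale of log2(CPM + 5) was -1.53 in gamergates and -0.31 in workers. Its high day 3 values were those of the gamergates.

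**Figure D3:**
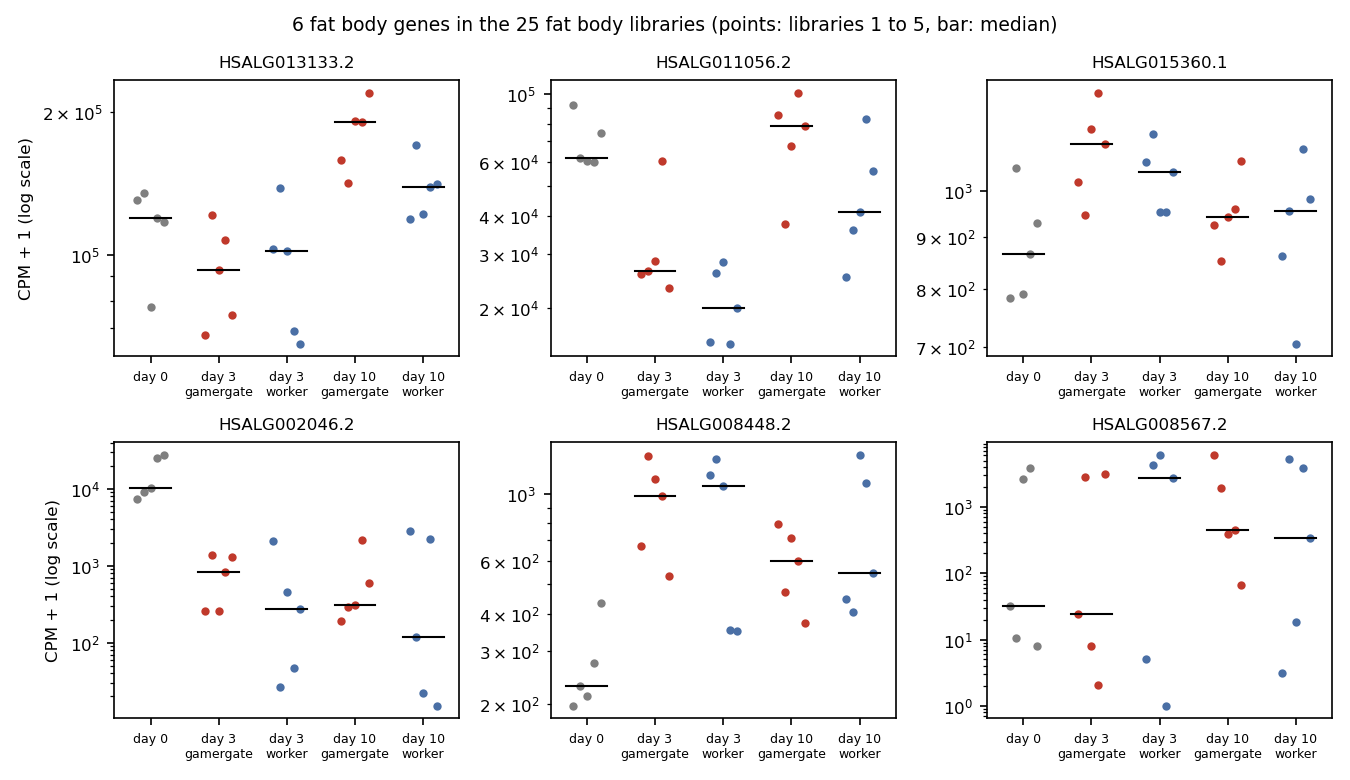
CPM + 1 on log scales for 6 members in the 25 fat body libraries, by group, with the library number increasing from left to right within a group and bars at group medians. The y axes differ between panels. HSALG011056.2 is low at day 3, HSALG002046.2 is below its day 0 range at both later days, and HSALG008567.2 is either above 1000 CPM or below 500 CPM in every group.

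By the median SD, members varied more between fat bodies than genes in general. Over the 25 libraries, the median SD of log2(CPM + 5) was 0.57 for 172 members and 0.40 for all genes tested, and within groups 0.51 and 0.37. The genes were not matched for level, and the added 5 CPM lowers the SD of low genes. A within-group SD above 1 was found for 7 of the 172 members, against 3.63% of all genes. Pairs of members had a median correlation of 0.22 over the 25 libraries and 0.30 after group means were removed. These share library depth and scaling factor and are a description. HSALG015360.1 had the lowest SD, 0.19, and stayed between 705 and 1252 CPM in all 25 fat bodies. HSALG008567.2 had the highest, 3.91. It was at 1914 to 6145 CPM in 11 libraries and at 0 to 451 CPM in the other 14, of which 11 were below 100 CPM. High values came in 2 or 3 of the 5 libraries of every group. They were thus found at each day and in each caste. Ovaries had 40.5 to 109 CPM of it and brains at most 11.98 CPM. Among the ovaries, day 10 gamergates had 40.5 to 58.6 CPM and day 10 workers 52.9 to 96.1 CPM.

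Outside the fat body, the same genes can be compared between castes without the rule's own measure. In the brain, 122 members passed the filter. Members near the filter's limit passed through the libraries where they were higher. The counts therefore describe those that passed and not the whole list. At day 3, 0 were called (edgeR quasi-likelihood test, adjusted p below 0.05), against 0% of 9886 genes. At an unadjusted p below 0.05 there were 4 (3.28%), against 1.27% of all genes, and DESeq2 called 0. At day 10, 3 members (2.46%) were higher in gamergates and 0 lower, against 0.182% higher and 0.0607% lower of all genes, or 0.243% either. An unadjusted p below 0.05 was found for 39 of the 122 (32%), against 5.17% of all genes. The median log2 difference was 0.38, against 0.02 over all genes. The share of 32% and this median include gamergate brain library 5, which stood apart, and are not given without it.

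HSALG013031.2 was at 138, 142, 115, 94.7 and 273 CPM in day 10 gamergate brains and at 27.4, 30.5, 22.9, 36.9 and 27.2 CPM in worker brains. Every gamergate was above every worker. The log2 difference was 2.46 (SE 0.40, edgeR quasi-likelihood test, adjusted p = 0.00391). HSALG000867.2 was at 266, 324, 266, 286 and 708 CPM in gamergates and at 130, 187, 118, 176 and 138 CPM in workers, again without overlap. Its log2 difference was 1.37 (SE 0.24, edgeR quasi-likelihood test, adjusted p = 0.00576). HSALG010702.1 differed by 1.36 (SE 0.27, edgeR quasi-likelihood test, adjusted p = 0.0202), with 18.2 to 40.2 CPM against 7.16 to 14.3 CPM. Its call was lost in 5 of 10 fits that left out 1 library.

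Gamergate brain library 5 was the highest for all 3 genes. The members took 4.55% of its reads, against 2.19% to 2.36% in the other 4 gamergate brains. The median of its correlations with the fat body libraries was 0.508, against 0.333 to 0.359 for the other 4 gamergate brains. Without library 5 the log2 differences were 2.08, 0.93 and 1.09. With lane as a term 0 members were called, and HSALG013031.2 had a difference of -0.14. For castes at day 10 that term rests on day 0 brain libraries 3 and 4, 1 per lane. These 2 libraries had 7.70 and 48.9 CPM of HSALG013031.2. The median SE of the 3 called genes was 0.65 in place of 0.27, so this fit cannot separate lane from caste. DESeq2 called 6 members, of 53 genes in all, and a fit of the 2 day 10 brain groups alone called 1, of 10 genes. The part of fat body RNA in these brain libraries was not tested.

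In the ovary 133 members passed the filter, and at day 3 none was called (0, edgeR quasi-likelihood test, adjusted p below 0.05), against 0% of 9150 genes. At an unadjusted p below 0.05 there were 13 (9.77%), against 3.96% of all genes, and DESeq2 called 0. At day 10, 24 members (18%) were higher and 54 (40.6%) lower in gamergates, against 22.6% higher and 21.5% lower of all genes, or 44.1% either. Members near the filter's limit passed through the ovaries where they were higher. The split between higher and lower is therefore not independent of the filter and describes only the 133 that passed. The median log2 difference was -0.40. For 18 of the 78 the castes did not overlap, 5 higher (3.76% of the 133) and 13 lower (9.77%), against 9.11% and 7.84% of all genes.

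Worker ovaries 1, 2 and 3 stood apart in this comparison. The median level of the 173 genes was 29.8, 25.5 and 20.5 CPM in worker ovary libraries 1, 2 and 3 of day 10. It was 10.6 and 10.9 CPM in worker libraries 4 and 5 and 10.8 to 15.1 CPM in the 5 gamergate ovaries. Libraries 1, 2 and 3 also held more reads of genes specific to the brain, 0.497% to 0.673%, against 0.309% and 0.395% in libraries 4 and 5. Without the 3 libraries, 9 members were called, 5 higher and 4 lower, against 6.49% of all genes, with 2 worker libraries left. The median difference of the members was then 0.13. With lane as a term, which here rests on day 0 ovary libraries 3 and 4, 1 per lane, 0 were called. The 78 genes called in the main fit kept their direction, with a median SE of 1.24 in place of 0.52. The part of other tissues in these ovaries was not tested.

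**Figure D4:**
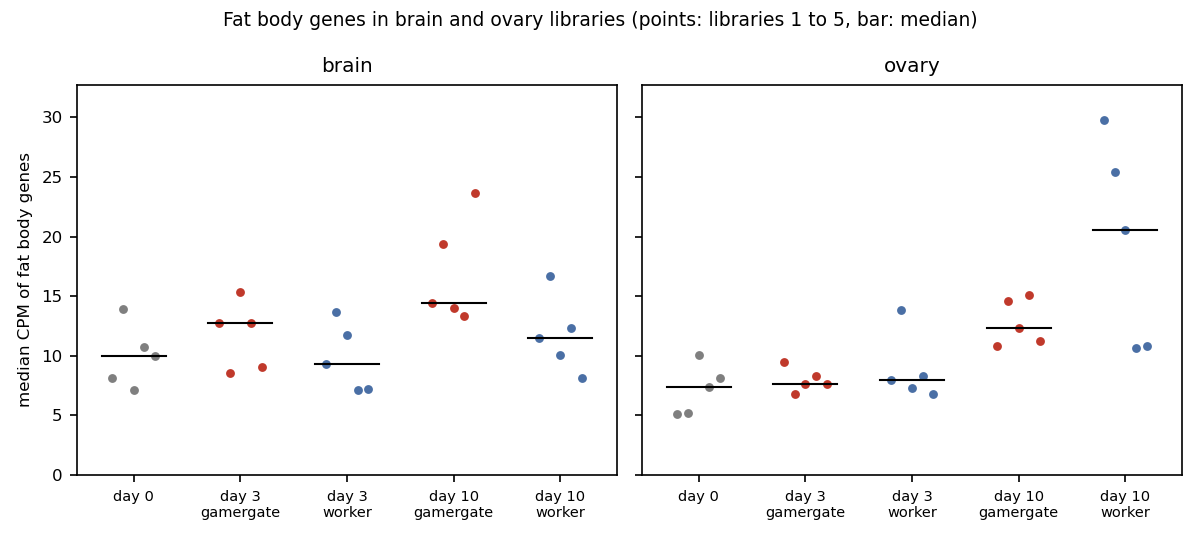
Median CPM of the 173 members that do not rest on a single day 0 library, in each brain (left) and ovary (right) library, with bars at group medians. In the ovary, worker libraries 1, 2 and 3 of day 10 lie at 20.5 to 29.8 CPM, above all 22 other ovaries. In the brain, gamergate library 5 of day 10 is the highest.

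HSALG007967.2, with R of 8.50, was lower in gamergate ovaries at day 10. It was at 2.88, 5.37, 1.12, 4.61 and 11.2 CPM in gamergates and at 118, 108, 59.7, 12.5 and 46.5 CPM in workers, with no overlap. The log2 difference was -3.74 (SE 0.86, edgeR quasi-likelihood test, adjusted p = 0.00206). Without worker libraries 1, 2 and 3 it was -2.51 (edgeR adjusted p = 0.133). Its fat bodies held 2414 to 8333 CPM, so the worker ovaries were at a small fraction of the fat body level. HSALG023352.1 was at 0.719, 0.767, 0, 1.32 and 2.93 CPM in gamergates and at 29.8, 13, 14.9, 3.75 and 6.98 CPM in workers, also without overlap. It had a difference of -3.50 (SE 0.81, edgeR quasi-likelihood test, adjusted p = 0.00173) and -2.10 without the 3 libraries (edgeR adjusted p = 0.203). HSALG023352.1 had 143, 25, 16, 6 and 9 reads in these worker ovaries and 0 to 6 in the gamergates. The gene passed the ovary filter largely through the workers where it was high, so its call is not independent of that level.

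Of the 24 members higher in gamergate ovaries, 12 were among the genes with the pattern of 6 libraries described above, which include both named here. The 6 libraries include day 10 gamergates 1 to 4 and no day 10 worker, so this overlap largely follows from the definition. The pattern was found in 3.65% of all genes measured in the ovary. HSALG010980.2 was at 61.8, 69.0, 89.9, 79.6 and 5.87 CPM in gamergates and at 1.46 to 3.88 CPM in workers. The castes did not overlap, and gamergate library 5 was close to the workers. The log2 difference was 4.83 (SE 1.48, edgeR quasi-likelihood test, adjusted p = 0.0125), and 4.24 without worker libraries 1, 2 and 3 (edgeR adjusted p = 0.24). HSALG006583.2, a gene that rests on day 0 fat body library 3, had 3 reads in all worker ovaries, all in library 1. It was at 41.7, 76.7, 44.9, 47.4 and 0.978 CPM in gamergates. The ratio of pooled CPM was 138, with an exact binomial 95% interval of 46.9 to 674 that covers counting error only and not the spread between libraries. The gene passed the ovary filter only through the libraries where it was high, mostly day 10 gamergates. Its call (edgeR quasi-likelihood test, adjusted p = 0.00231) is therefore not independent of that level. Without worker libraries 1, 2 and 3, which leaves 2 worker libraries with 0 reads, the fitted log2 difference had an edgeR adjusted p of 0.115.

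**Figure D5:**
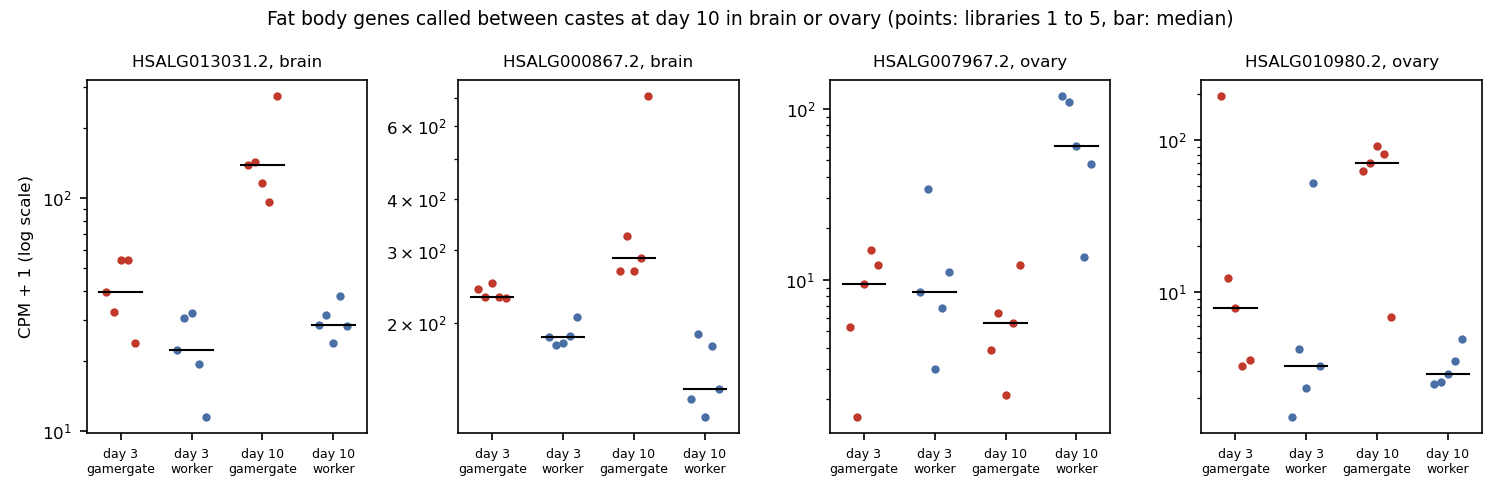
CPM + 1 on log scales for 4 members at day 3 and day 10 in brains (2 panels at left) or ovaries (2 panels at right), with the library number increasing from left to right within a group and bars at group medians. The castes do not overlap at day 10 in any of the 4 panels. Gamergate brain library 5 is the highest in both brain panels, and gamergate ovary library 5 lies close to the workers in the last panel.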

How the data were processed

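The deposited table holds raw counts of reads per gene that the authors did not normalize, in 75 libraries. The submitters' processing notes name Trimmomatic, STAR 2.5.3a and HTSeq. Neither build, annotation nor strand setting was given in the sources used here, so overlapping, antisense and near-identical genes could not be set apart. The 5 rows of unassigned reads were left out. CPM were computed with edgeR 4.0.16 in R 4.3.3, with TMM factors over all 75 libraries. Tests used edgeR's quasi-likelihood fit with robust dispersion, with 1 coefficient per group, the filterByExpr filter at a minimum count of 10 and a minimum total of 15, and Benjamini-Hochberg adjustment over all genes tested. Tissues were compared in the 30 day 3 libraries, and castes and days in the 25 libraries of a tissue. Each SE was derived from the F statistic and so restates the test. The fits were tested on simulated data. DESeq2 1.42.0, RLE scaling, other filters, a lane term, a replicate block, fits of the compared groups and leaving out each library were alternatives. Library totals as scaling, leaving out single-library members, and leaving out 3 worker ovaries, 1 gamergate brain or day 0 fat body library 3 were chosen after seeing the data. The members and lists were chosen with earlier results of these data known. Genes printed for a comparison were those called with the largest log2 fold change among genes without overlap whose higher group reached 10 CPM, at most 2 per direction, or all where 5 or fewer were called. Others were the genes with the highest level, R, SD or day change. Precision is limited by 488892 to 4677916 assigned reads per library.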

Additional observations from a re-analysis of the deposited data

Results flagged for a closer look

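Of 41 sets of 5 libraries examined, 8 had a library far from the other 4. The threshold is one that chance passes in about 1 in 20 sets, but these sets share libraries and hold genes named for their values, so the count is not set against that rate. The members' summed share of reads was 4.55% in day 10 gamergate brain library 5 and 31.9% in day 10 gamergate fat body library 5. HSALG011056.2 was at 60310 CPM in day 3 gamergate fat body library 4. In day 0 fat body library 3, HSALG010895.2 was at 25990 CPM and HSALG005185.1 at 13680 CPM. Day 10 gamergate brain library 5 had 273 CPM of HSALG013031.2 and 708 CPM of HSALG000867.2. HSALG006583.2 was at 0.624 CPM in day 10 worker ovary library 1 and at 0 in the other 4.

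Caste differences at day 10 differed between brain and ovary for 4 of the genes named for a caste comparison, by a test of the difference itself over the 20 day 10 libraries of both tissues (edgeR quasi-likelihood test, adjusted over all genes). The genes were named for a day 10 caste difference in these same libraries, which favours a large value. The p-values here, also those for a change between days, are therefore not independent of the choice. HSALG013031.2 had a log2 difference of 2.46 in the brain and -3.03 in the ovary, which differed by 5.52 (SE 0.88, adjusted p = 0.000908 in edgeR). HSALG000867.2 was higher in all 5 gamergate brains and lower in all 5 gamergate ovaries, and the difference of differences was 2.06 (SE 0.34, adjusted p = 0.00079 in edgeR). It was 3.95 for HSALG023352.1 (SE 0.78, adjusted p = 0.00339 in edgeR) and -4.76 for HSALG010980.2 (SE 1.1, adjusted p = 0.00713 in edgeR). Without gamergate brain library 5 these 4 differences were 5.16, 1.64, 3.48 and -6.06, all still past the threshold in edgeR (highest adjusted p = 0.00307). Without worker ovaries 1, 2 and 3 they were 3.68, 2.02, 2.46 and -4.16, with edgeR adjusted p of 0.0376, 0.0233, 0.175 and 0.118, so that the calls of HSALG023352.1 and HSALG010980.2 were lost. Between day 3 and day 10, the ovary caste difference changed by -0.72 for HSALG000867.2 (SE 0.17, adjusted p = 0.00895 in edgeR) and by 7.86 for HSALG006583.2 (SE 2.14, adjusted p = 0.018 in edgeR). The latter had 3 reads in the day 10 worker group and passed the filter only through the libraries where it was high. In the brain, where 4 of the named genes were measured, no change between the days was called (lowest adjusted p = 0.999 in edgeR). The estimates were 1.59 for HSALG013031.2 (SE 0.57), 1.31 for HSALG010702.1 (SE 0.37), 1.03 for HSALG000867.2 (SE 0.33) and 0.42 for HSALG023352.1 (SE 0.43).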

How the results depend on the processing

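The tissue differences at day 3 kept their counts within 1.5 times under all alternatives run. With lane as a term, 0 members were called between day 10 and day 3 in fat body, 0 between castes in day 10 brain and 0 in day 10 ovary, and HSALG013031.2 in brain reversed to -0.14. For the castes at day 10 the lane term rests on day 0 libraries 3 and 4 of each tissue, with larger SEs. These fits therefore cannot separate lane from caste. DESeq2 called 2 members between castes in day 3 fat body and 6 in day 10 brain, where a fit of the compared groups alone called 1. Without day 10 worker ovaries 1, 2 and 3 the ovary count was 9. Leaving out 1 library at a time gave 173 to 174 members above brain, 171 to 175 above ovary, 13 to 23 changed between days, 2 to 4 between castes in day 10 brain and 68 to 91 in day 10 ovary. The 3 caste counts at day 3 were 0 in every such fit (0 to 0). Whether libraries of the same number belong together is not stated, and the main fits used no pairing. The lowest correlation of same-numbered deviations was below 0.1 in every comparison, and the medians ran from -0.166 to 0.225. By comparison, 0 to 4 of the 5 libraries matched their own number best. The 4 were day 3 worker fat bodies set against brains, so a pairing across tissues is not excluded. With the replicate number as a block, the counts were 173, 171, 0, 15, 0, 4, 0 and 77 in the order of the report. The rule kept 172 to 198 of the 200 members when a library number was left out, 179 and 182 with pseudocounts of 1 and 10, and 192 with RLE scaling. With library totals, an alternative chosen after seeing the data like the one without 3 ovaries, it kept 89. Depth limits the brain and ovary comparisons to the 122 and 133 members measured there.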
